A study of Homo sapiens with 12 samples.

Results

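Long noncoding and antisense RNAs detected at a mean of 50 or more normalized reads in HEK293T cells are described here across 4 transfection conditions. They were picked by name from the deposited tables: symbols that start with SNHG or LINC, symbols that end in -AS1 or -AS2, microRNA host genes whose symbols start with MIR and end in HG, and GAS5, MALAT1, NEAT1 and TUG1, each with a mean of 50 or more in both tables. Of 26485 genes in each table, 1901 have such a name and 188 passed the minimum. These 188 comprise 17 small nucleolar RNA (snoRNA) host genes (SNHG names and GAS5), 3 nuclear long noncoding RNAs (MALAT1, NEAT1 and TUG1), 5 microRNA host genes, 45 LINC genes and 118 antisense RNAs. The level itself chose them, so levels are given as a description.

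The study transfected HEK293T cells, an immortal line derived from embryonic kidney and made to express the large T antigen of simian virus 40, with plasmids of the PX330-GFP type by polyethylenimine and sequenced polyA RNA. The 12 libraries formed 4 groups of 3: 6T sgRNA with Cas9, 6T sgRNA without Cas9, luciferase sgRNA with Cas9 and luciferase sgRNA without Cas9. Luciferase is a gene human cells lack, and the target of the 6T guide is not given in the sources used here. All 4 groups received a plasmid of this type and an sgRNA, so none was left without transfection, and GFP-positive and GFP-negative cells were not told apart by the labels. The authors deposited 1 table per sgRNA with the mean of a condition B and of a condition A, and the headers state neither which of them contained Cas9 nor a common order for both tables. Differences within a table are given as condition B over condition A throughout. Counts for each of the 12 libraries were worked back from the means, and the names B1 to B3 and A1 to A3 follow the size factors (the scaling factor of each library) and carry no replicate number. The labels do not say whether libraries came from separate cultures, so p-values measure the spread between these libraries only. In bulk RNA, fewer cells that contain a transcript and less of it per cell cannot be told apart.

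Host genes of snoRNAs are transcribed by RNA polymerase II, and the snoRNAs, which guide chemical modification of ribosomal RNA, are cut from their introns. The spliced exons that remain often have no long open reading frame, are read briefly by ribosomes and are degraded by nonsense-mediated decay. Many host genes begin with a 5′ terminal oligopyrimidine (TOP) tract, a C followed by a run of pyrimidines, which ties the translation of ribosomal protein mRNAs to growth signals. MALAT1 marks nuclear speckles, NEAT1 is the scaffold of paraspeckles, and antisense RNAs are transcribed from the strand opposite a named gene, often from a shared promoter.

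RefSeq places at least 1 snoRNA gene inside the annotated span of 14 of the 17 snoRNA hosts, 46 snoRNA genes in all, with 11 in GAS5, 9 in SNHG1 and 4 in SNHG12. Of the 17 hosts, 15 had a promoter in the RefSeq table (GRCh38.p14). In 4 of these 15 the RefSeq transcript began with a C and a run of 5 or more pyrimidines counted from that C, a share of 26.7%. The same start was found in 37 of 59 cytosolic ribosomal protein genes (62.7%), in 5.51% of 8899 genes with a mean of 50 or more, in 4.04% of all 27305 genes with a promoter in the table, in 1 of 4 microRNA hosts (MIR762HG), in 0 of 2 nuclear RNAs, in 0 of 34 LINC genes and in 2 of 97 antisense RNAs. The match was searched on the transcribed strand only, at the annotated first base, and a match is a description and not a tested site. The starts of the 4 matching hosts are shown because the tract is the feature these hosts share with ribosomal protein genes, and that of SNHG1 because its run stops after 3 bases. Each shows 20 bases before the start and 25 from it, with the pyrimidine run from the first transcribed base in capitals.
SNHG4 (chr5:139274081-139274125, plus strand): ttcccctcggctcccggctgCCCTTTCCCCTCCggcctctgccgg
SNHG12 (chr1:28581849-28581893, minus strand): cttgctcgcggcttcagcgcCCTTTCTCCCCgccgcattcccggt
SNHG19 (chr16:2155334-2155378, minus strand): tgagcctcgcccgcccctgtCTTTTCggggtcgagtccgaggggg
SNHG5 (chr6:85678709-85678753, minus strand): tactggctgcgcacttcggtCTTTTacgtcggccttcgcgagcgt
SNHG1 (chr11:62855861-62855905, minus strand): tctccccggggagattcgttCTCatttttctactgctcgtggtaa
SNHG4 had the longest run at 13 bases, followed by SNHG12 with 11, SNHG19 with 6 and SNHG5 with 5.

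All 5 microRNA host genes have a microRNA inside their annotated span. MIR17HG (chr13:91347820-91354579, plus strand) carries the miR-17-92 cluster, a set of microRNAs known to promote cell proliferation, and it was the microRNA host whose level differed most between conditions. Its 6 arms known as the main products are shown, as RefSeq gives them for GRCh38.p14, with the seed (bases 2 to 8), which pairs with target mRNAs, in capitals.
miR-17-5p: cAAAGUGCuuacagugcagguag
miR-20a-5p: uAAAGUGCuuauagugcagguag
miR-18a-5p: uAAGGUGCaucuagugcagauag
miR-19a-3p: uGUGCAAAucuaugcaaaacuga
miR-19b-3p: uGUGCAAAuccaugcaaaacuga
miR-92a-3p: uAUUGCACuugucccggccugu
miR-17-5p and miR-20a-5p share 1 seed, miR-19a-3p and miR-19b-3p share another, and miR-18a-5p and miR-92a-3p have seeds of their own. MIR210HG, the host of a microRNA known to rise in low oxygen, holds miR-210-3p.
miR-210-3p: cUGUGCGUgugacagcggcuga
PolyA libraries measure the host transcripts and not these mature microRNAs.

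Depth differed between conditions. Reads in genes ranged from 19398816 to 38077505 in the Luciferase libraries of condition B and from 5896484 to 8234586 in those of condition A, against 6350658 to 8295927 over the 6 libraries of the 6T table. The 188 RNAs took between 0.5258% and 0.6587% of the reads in genes of a library, and the fewest reads of any of them in a library were 19 (ZNRD1-AS1) and the most 27407 (LRRC75A-AS1). Both tables share 1 set of size factors, so their means can be set side by side. Of 9 genes that mark HEK293T cells, such as the neurofilament genes NEFM and NEFL, all 9 had a mean of 10 or more, against 2 of 4 fibroblast markers and 0 of 2 hepatocyte markers. Of all libraries, Luciferase A1 and 6T A2 stood furthest apart by base composition. Genes whose transcripts hold 56.7% GC or more lay 0.82 higher (log2, relative to the mean of all libraries) than those with 42.1% or less in Luciferase A1, and 0.50 lower in 6T A2.

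The snoRNA hosts were the class with the highest level per length. Per exonic kilobase, their median was 266 normalized reads, against 96.1 for the 3 nuclear RNAs, 47.1 for LINC genes, 43.6 for microRNA hosts and 38.0 for antisense RNAs. SNHG19 had the highest value of the hosts (749 per kb), followed by SNHG5 (586), SNHG1 (464) and GAS5 (421). By total normalized reads, the order within the class was SNHG1 (1742), SNHG5 (1644) and SNHG3 (1612), each a mean of the 4 condition means. The highest level among all 188 belonged to LRRC75A-AS1, with 7559 normalized reads and 2011 per exonic kb. RefSeq now names this RNA SNHG29 and 3 snoRNA genes (SNORD49A, SNORD49B and SNORD65) lie within it, so its role is that of a snoRNA host although its table name places it among the antisense RNAs. In all, 6 RNAs outside the snoRNA host class have a RefSeq snoRNA gene, on either strand, inside their span. The others are EPB41L4A-AS1, LINC00888 (SNHG33 in RefSeq), STARD7-AS1, THAP9-AS1 and UBA6-AS1. All 6 were kept in their classes by name, so the classes do not fully separate host genes. LINC00657, which RefSeq names NORAD and which is known to bind Pumilio proteins and to guard chromosome stability, led the LINC genes by reads (1889, or 354 per kb). LINC00674 (chr17:68101908-68115518) was higher per length, at 1188 per kb over an annotated exonic length of only 0.734 kb.

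**Figure D1:**
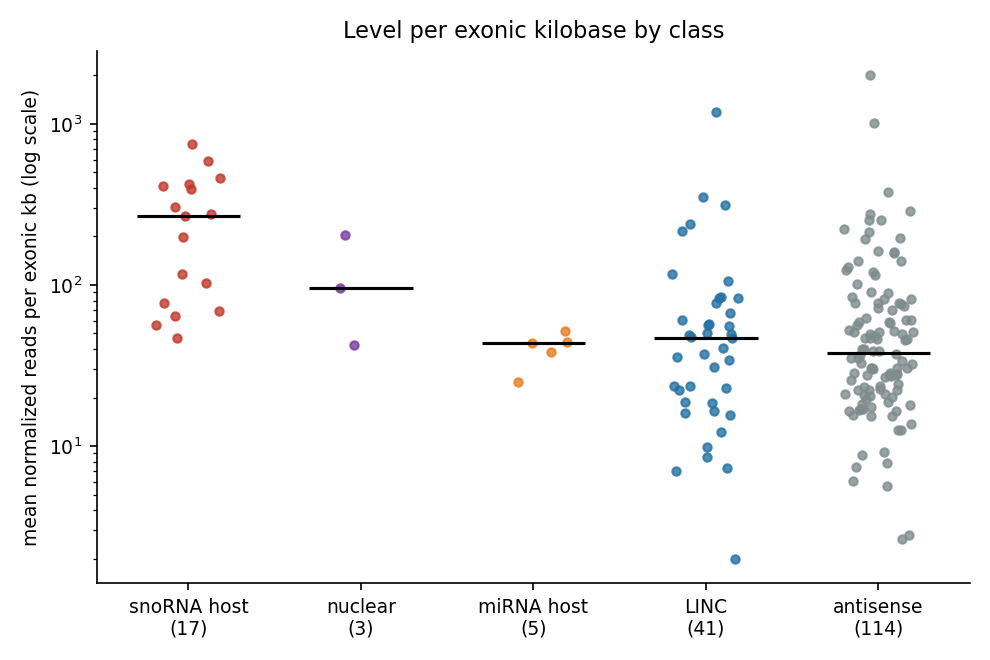
Mean normalized reads per exonic kilobase (log scale) of the 180 RNAs matched by symbol in GENCODE 29, by class, with the number per class in parentheses. Each point is 1 RNA, the mean of the 4 conditions, and bars are class medians, from 266 in snoRNA hosts to 38.0 in antisense RNAs.

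Names and products do not always coincide. RefSeq lists 8 of the 188 as protein coding: TUG1, LINC00094 (BRD3OS), LINC00116 (MTLN), LINC00493 (SMIM26), LINC00998 (SMIM30), LINC01420 (NBDY), MMP24-AS1 (MMP24OS) and NCBP2-AS2 (NCBP2AS2), most of which are known to encode small proteins. The exons of 84 of the 188, 72 of them antisense RNAs, overlap those of a gene on the other strand. Only genes with a mean of 10 or more in both tables count here (91 where genes at any level in the tables count). The use of strand in the counting is not stated, so reads from the shared bases cannot be told apart. The part shared with the gene in the name was 0.18% of the exonic bases of EXOC3-AS1 and 72.7% of those of RBM5-AS1. A match by symbol in GENCODE 29 was not found for 8 of the 188, LINC01000 and HNRNPU-AS1 included, so their length, GC content and overlaps are not given.

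Across the 4 condition means the 188 RNAs differed little. The ratio of the highest to the lowest mean had a median of 1.25 over the 188 and 1.20 over all 11500 genes with a mean of 50 or more and recovered reads. It was 1.5 or more for 17 RNAs (9.04%, against 9.88% of all these genes) and 2 or more for HNRNPU-AS1 alone (ratio 2.19), with MIR17HG next (2.00). By class the median ratio ran from 1.20 in snoRNA hosts and 1.23 in microRNA hosts to 1.24 in antisense RNAs, 1.26 in LINC genes and 1.31 in the 3 nuclear RNAs. The Luciferase condition B mean was the highest of the 4 for 18 of the 188 (9.57%, against 10.6% of all genes with a mean of 50 or more), the Luciferase condition A mean for 63 (33.5%, against 37.5%), the 6T condition B mean for 56 (29.8%, against 15.9%) and the 6T condition A mean for 51 (27.1%, against 36.0%).

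Under the 6T sgRNA, none of the 188 RNAs passed the authors' deposited test between condition B and condition A. That test called 8 of 19246 genes at an adjusted p under 0.05 (0.0416%), and the adjusted p of each of the 188 was 1. At an unadjusted p under 0.05 the authors' deposited table held 2 of the 188, SNHG8 and ATP6V1B1-AS1, both higher in condition B, a share of 1.06% beside 0.924% of all genes with a mean of 50 or more. limma, fitted to the recovered libraries, called 0 of the 188 at an adjusted p under 0.05 (0 of 14027 genes, 0%) and held 3 at an unadjusted p under 0.05 (1.60%, against 2.37%). Without 6T B1 the count at an unadjusted p under 0.05 was 16 (8.51%, against 5.88%), and without 6T A2 it was 9 (4.79%, against 3.40%). Libraries of the 2 conditions did not overlap for 15 of the 188, 8 with condition B above and 7 with it below, which is 7.98% against 7.81% of all genes at this level (4.16% above and 3.65% below). The class medians lay close to 0: the log2 fold change of condition B over A was −0.03 for snoRNA hosts (8 of 17 above 0), −0.13 for the nuclear RNAs (1 of 3), −0.12 for microRNA hosts (1 of 5), 0.07 for LINC genes (28 of 45) and 0.06 for antisense RNAs (73 of 118). Over all 188 it was 0.05, with 59.0% above 0, and over all genes with a mean of 50 or more −0.03, with 40.3% above 0.

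SNHG8, host of SNORA24, had 361, 536 and 431 normalized reads in the condition B libraries and 358, 383 and 282 in those of condition A. The ranges overlapped, since B1 lay below A2. The means were 443 ± 88.2 and 341 ± 52.9 (SD, n = 3), and the authors' deposited table gives a log2 fold change of 0.38 at an unadjusted p of 0.0348. Leaving out 1 library at a time, its limma log2 fold change ran from 0.22 without B2 to 0.51 without B1. ATP6V1B1-AS1 (chr2:70941817-70948610, minus strand), antisense to a subunit gene of the vacuolar proton pump, had 65.2, 60.0 and 69.2 in condition B and 38.5, 44.9 and 40.4 in condition A, with all libraries of condition B above all of condition A. Its log2 fold change in the authors' deposited table was 0.65 at an unadjusted p of 0.0222. Under the Luciferase sgRNA the same RNA had 51.3, 46.2 and 40.2 in condition B and 57.8, 65.0 and 48.5 in condition A, a log2 fold change of −0.32 (unadjusted p = 0.324 in the authors' deposited table). ARRDC1-AS1, next among the antisense RNAs, averaged 231 ± 7.69 and 181 ± 34.1 under the 6T sgRNA (SD, n = 3), again without overlap.

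Among LINC genes the smallest p under the 6T sgRNA belonged to 2 RNAs with lower values in condition B. LINC01296, which RefSeq names DUXAP9, a transcribed pseudogene, had 56.1, 64.2 and 78.8 in condition B and 80.0, 83.6 and 105 in condition A, a log2 fold change of −0.43 (unadjusted p = 0.0867, authors' deposited table). LINC00630, on the X chromosome, had 71.3, 60.0 and 62.1 and 93.8, 64.9 and 98.0 in the same order, with 1 condition A library inside the range of condition B. Of the microRNA hosts, MIR4697HG averaged 188 ± 9.45 in condition B and 233 ± 52.6 in condition A (SD, n = 3), with overlap.

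Under the Luciferase sgRNA, again none of the 188 passed, and the authors' deposited test called 0 of 20194 genes (0%). At an unadjusted p under 0.05 that table held 5 of the 188 (2.66%, against 1.55% of all genes with a mean of 50 or more): SNHG21 higher in condition B, and ST20-AS1, SDCBP2-AS1, ZNF503-AS2 and ATP6V0E2-AS1 lower. limma called 0 of the 188 at an adjusted p under 0.05 (lowest 0.453; 0 of 14006 genes, 0%) and held 19 at an unadjusted p under 0.05, 4 higher and 15 lower in condition B (10.1%, against 9.76%). That count of 19 became 5 without Luciferase B2, 9 without Luciferase B3 and 12 without Luciferase A1. Libraries did not overlap for 33 of the 188 (17.6%, against 16.2%). Of these, 9 had condition B above and 24 had it below, whereas among all genes at this level 6.46% had condition B above and 9.77% below. Class medians were −0.01 for snoRNA hosts (8 of 17 above 0), 0.31 for the nuclear RNAs (2 of 3; 0.04 after a correction for GC content, and between 0.12 without Luciferase B3 and 0.44 without Luciferase B2), −0.02 for microRNA hosts (2 of 5), −0.03 for LINC genes (17 of 45) and −0.04 for antisense RNAs (50 of 118), beside −0.00 for all genes with a mean of 50 or more (49.5% above 0).

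SNHG21 (chr15:82750564-82757206, plus strand) showed the smallest p among snoRNA hosts. It had 116, 114 and 127 normalized reads in condition B and 71.0, 77.3 and 82.4 in condition A, with every condition B library above every condition A library. The fold change was 1.54 (log2 0.63, unadjusted p = 0.0154) in the authors' deposited table. Of the 188, it was the 1 RNA (0.532%, against 1.2% of all genes at this level) whose libraries also stood apart under the 6T sgRNA, where condition B had 136, 124 and 123 and condition A 115, 122 and 95.5, a fold of 1.15 (unadjusted p = 0.359). Its exons overlap those of FSD2 on the other strand. SNHG12 had 387, 377 and 321 in condition B and 263, 303 and 307 in condition A, a log2 fold change of 0.32 (unadjusted p = 0.158, authors' deposited table).

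ST20-AS1 had the smallest p of the antisense RNAs, with 79.2, 57.2 and 52.7 in condition B and 107, 97.4 and 93.4 in condition A, a fold of 0.634 (log2 −0.66, unadjusted p = 0.0126, authors' deposited table). SDCBP2-AS1 had 61.4, 61.9 and 61.7 and 101, 92.8 and 90.9 in the same order (log2 −0.62, unadjusted p = 0.0282). Neither pair of conditions overlapped. Under the 6T sgRNA both RNAs overlapped between conditions, at 73.9 ± 7.52 in condition B and 65.9 ± 2.79 in condition A for ST20-AS1, and at 59.9 ± 11.2 and 57.2 ± 17.2 for SDCBP2-AS1 (SD, n = 3). PSMG3-AS1 had the lowest fold of condition B over A in the Luciferase table among the 188 (0.586), from 103, 94.8 and 93.4 in condition B and 216, 145 and 135 in condition A. LINC01569 had 55.8, 44.7 and 53.0 and 90.9, 66.5 and 69.1 (log2 −0.56), again without overlap.

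TUG1, a long noncoding RNA with known links to chromatin regulators, had 1777, 2221 and 2425 normalized reads in condition B and 993, 1907 and 1903 in condition A under the Luciferase sgRNA. The low mean of condition A came from library A1, which also stood apart by base composition, though a link between them was not tested. Without that library the limma log2 fold change was 0.16, against 0.47 with it. The authors' deposited table gives 0.42 at an unadjusted p of 0.115. MIR17HG had 119, 142 and 155 in condition B and 54.5, 113 and 93.4 in condition A. Its condition B libraries all lay above those of condition A, and the limma log2 fold change of 0.72 became 0.42 without library A1. The authors' deposited table gives 0.67 at an unadjusted p of 0.0888. Under the 6T sgRNA MIR17HG had 173, 93.6 and 141 in condition B and 143, 231 and 147 in condition A, with overlap. HNRNPU-AS1, whose 4 means had the largest ratio of the 188, had 259, 341 and 607 in condition B and 82.6, 314 and 238 in condition A, so that its libraries overlapped; over all 12 libraries its highest value was 8.57 times its lowest. RefSeq holds its symbol as another name of HNRNPU. MALAT1 averaged 389 ± 92.6 in condition B and 315 ± 51.0 in condition A under the Luciferase sgRNA, and 376 ± 18.0 and 412 ± 60.1 under the 6T sgRNA (SD, n = 3). NEAT1 averaged 2127 ± 485 and 2208 ± 495 under the Luciferase sgRNA and 2219 ± 522 and 2202 ± 290.4 under the 6T sgRNA in the same order (SD, n = 3). For both RNAs the libraries overlapped between conditions under either sgRNA.

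**Figure D2:**
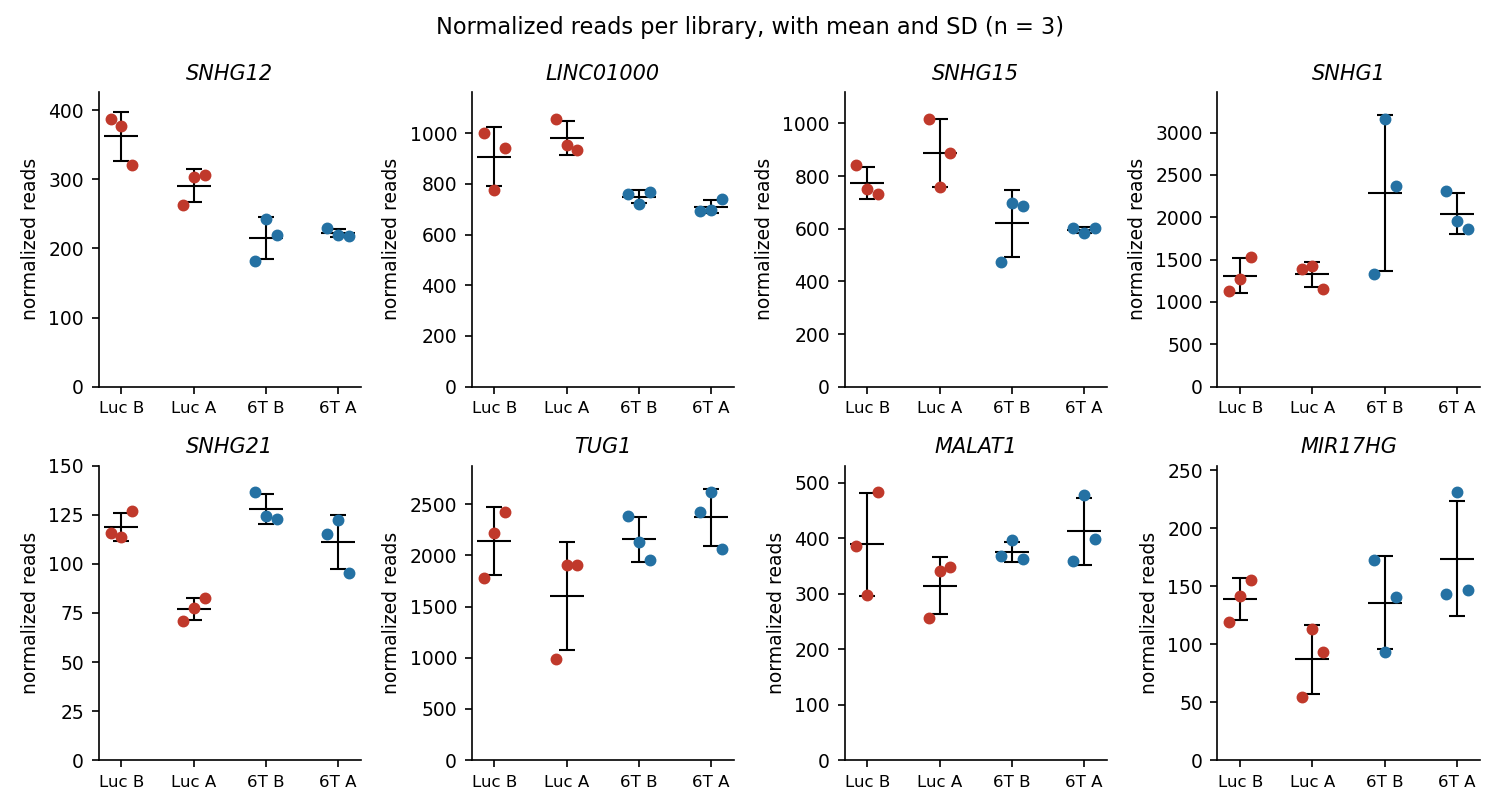
Normalized reads per library (points) of 8 RNAs, with the mean (bar) and SD (n = 3) for Luciferase condition B, Luciferase condition A, 6T condition B and 6T condition A; the axes start at 0. SNHG12, LINC01000 and SNHG15 lie higher in every Luciferase library than in any 6T library, and Luciferase A1 is the lowest point of TUG1, MALAT1 and MIR17HG.

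As the tables order the conditions, fold changes of condition B over A had opposite signs under the Luciferase and 6T sgRNAs for most of these RNAs. Every value in this comparison takes condition B of 1 table with condition B of the other, and the headers do not say that they match. Of the 188 RNAs, 138 (73.4%) had opposite signs, 85 of them higher under the 6T sgRNA and lower under the Luciferase sgRNA, and 53 the other way round. Over all genes with a mean of 50 or more the share was 66.5%. With the order turned in 1 table, 50 of the 188 (26.6%) would have opposite signs, against 33.5% of all these genes. Spearman's rho across genes was −0.47 for the 188 and −0.44 for all these genes in the tables' own order, and genes are not independent replicates. The share was 82.2% of LINC genes, 70.6% of snoRNA hosts and 70.3% of antisense RNAs, also in that order. The difference between the 2 fold changes was tested with limma over all 12 libraries, again taking the conditions in the tables' order. It called 0 of the 188 and 0 of 13829 genes (0%), with a lowest adjusted p of 0.481 among the 188. An unadjusted p under 0.05 was held by 21 of the 188 (11.2%, against 9.52%). With 1 library left out, that count ran from 10 without Luciferase B2 (5.32%, against 4.77%) to 39 without 6T B1 (20.7%, against 14.7%). With the order turned in 1 table, where the difference becomes a sum of the fold changes, limma also called 0 of the 188 (0.00723% of genes), with 2 at an unadjusted p under 0.05 (1.06%, against 3.06%). In the tables' order the smallest p belonged to antisense RNAs that include ATP6V1B1-AS1 (difference −0.95 ± 0.25 SE), ST20-AS1 (−0.83 ± 0.24), ZNF503-AS2 (−0.57 ± 0.19), MMP24-AS1 (−0.39 ± 0.14) and MIF-AS1 (−0.35 ± 0.13), each as Luciferase minus 6T on the log2 scale. With 1 table turned these values were 0.33, −0.51, −0.36, 0.02 and −0.02 in the same order of genes.

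**Figure D3:**
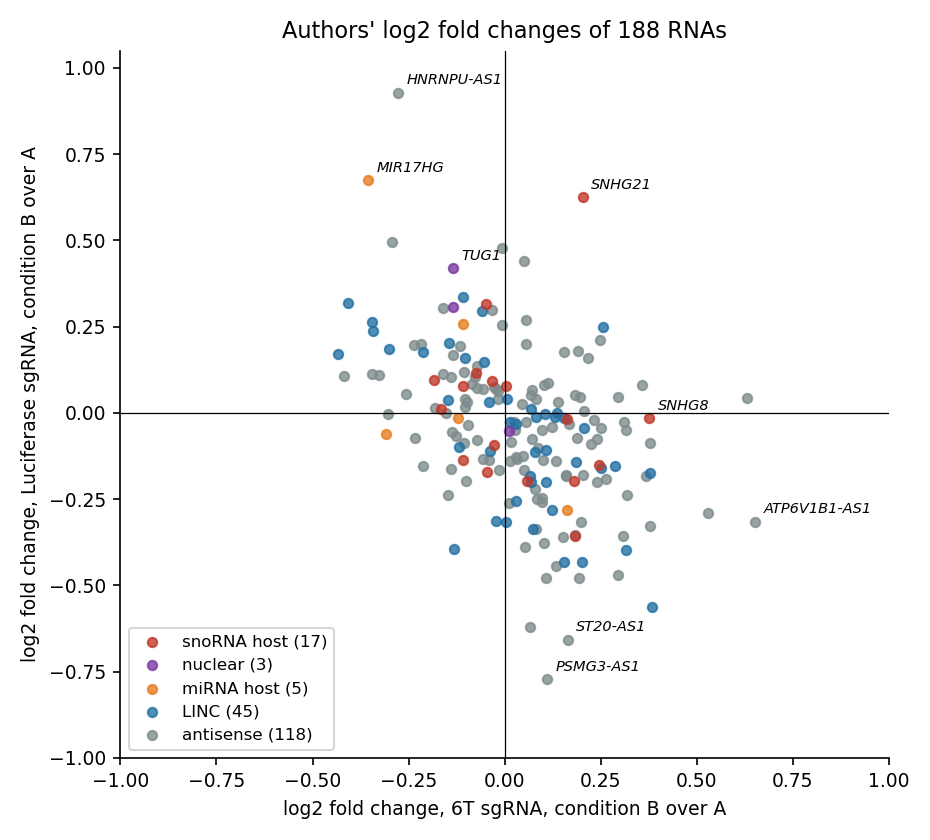
The authors' log2 fold changes of condition B over A for the 188 RNAs under the Luciferase sgRNA (vertical) and the 6T sgRNA (horizontal), coloured by class. Most points lie in the upper left and lower right, where the 138 RNAs with opposite signs in the tables' order fall, and SNHG21 lies in the upper right.

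SNHG12 was higher with the Luciferase sgRNA than with the 6T sgRNA, and other snoRNA hosts lay higher (SNHG15, SNHG17) or lower (SNHG1) without passing the test. Each comparison here sets Luciferase libraries against 6T libraries, and the average over both conditions, which holds whichever condition contained Cas9, was added after the data were seen. limma called 126 of 13829 genes at an adjusted p under 0.05 (0.911%), with 0.759% higher in Luciferase libraries, and 2 of the 188 RNAs (1.06%), SNHG12 and LINC01000, both higher in Luciferase libraries. At an unadjusted p under 0.05 it held 42 of the 188 (22.3%, against 23.7% of genes). With 1 library left out, the genes called over both conditions numbered from 6 (without Luciferase B1) to 319 (without Luciferase A2). Within condition A alone, as each table names it, it called 0 of the 188 and 13 of 13829 genes (0.094%), with 49 of the 188 (26.1%) at an unadjusted p under 0.05 against 31.6% of genes. Without Luciferase A2 it called 6 of the 188 there (3.19%), beside 1152 of 13829 genes (8.33%). Within condition B it called 0 of the 188 and 0 genes (0%), with 14 of the 188 (7.45%) at that p against 5.26% of genes. With the order turned in 1 table, Luciferase condition A against 6T condition B gave 1 of the 188, SNHG21, lower in the Luciferase libraries (log2 difference −0.73 ± 0.14 SE, limma adjusted p = 0.0439; 0.398% of genes called). At an unadjusted p under 0.05 that comparison held 30 of the 188 (15.96%, against 23.4%). Luciferase condition B against 6T condition A gave 0 (0% of genes), with 17 of the 188 (9.04%, against 4.95%) at that p. The 6 Luciferase libraries all lay above the 6 libraries of 6T for 4 of the 188 (SNHG12, SNHG15, SNHG17 and LINC01000) and all below for 3 (NIFK-AS1, PRKCQ-AS1 and RPARP-AS1), beside 1.66% and 1.46% of all genes. Of these 7, SNHG17 and the 3 antisense RNAs, like SNHG15, are named because of these values.

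SNHG12 (chr1:28578538-28583132, minus strand), host of SNORA16A, SNORA44, SNORA61 and SNORD99, had 387, 377 and 321 normalized reads in Luciferase condition B and 263, 303 and 307 in Luciferase condition A, against 182, 243 and 219.7 in 6T condition B and 229, 219.7 and 218 in 6T condition A. Over 6 libraries each, the mean was 326 ± 47.6 for Luciferase and 219 ± 20.2 for 6T (SD, n = 6). limma gave a log2 difference of 0.57 ± 0.09 SE with an adjusted p of 0.0168, and 0.48 with an adjusted p of 0.0284 after a correction for GC content. Leaving out any 1 of 4 libraries (6T A1, Luciferase A3, Luciferase B1 or Luciferase B2) took the adjusted p to between 0.0503 and 0.0672, with differences of 0.54 to 0.58. The exons of SNHG12 share only 8 bases (0.19% of its exonic bases) with those of TRNAU1AP on the other strand. LINC01000 averaged 944 ± 94.1 in Luciferase libraries and 731 ± 31.7 in 6T libraries (SD, n = 6), a limma log2 difference of 0.36 ± 0.07 SE with an adjusted p of 0.0357. Its call was lost in 10 of 12 fits that left out 1 library each, with adjusted p of up to 0.123 (without Luciferase B1), while the log2 difference stayed between 0.33 and 0.42.

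SNHG15 (chr7:44983023-44986961, minus strand), which gives rise to SNORA9, averaged 831 ± 109.7 in Luciferase libraries and 608 ± 81.5 in 6T libraries (SD, n = 6), and limma's adjusted p was 0.0559 for a log2 difference of 0.45 ± 0.10 SE. SNHG17 averaged 549 ± 68.0 and 425 ± 58.4 in the same order (SD, n = 6; log2 difference 0.37 ± 0.11 SE, limma adjusted p = 0.0798). SNHG1 (chr11:62851988-62855914, minus strand), the most abundant host and source of SNORD22 and its neighbours, went the other way. It had 1133, 1270.4 and 1532 in Luciferase condition B and 1393, 1430.5 and 1158 in Luciferase condition A, against 1330.1, 3163 and 2366 in 6T condition B and 2314, 1954 and 1858 in 6T condition A. The log2 difference was −0.67 ± 0.16 SE (limma adjusted p = 0.0585), and it became −0.85 with an adjusted p of 0.00656 when library 6T B1, the lowest of the 6T libraries, was left out. PRKCQ-AS1 averaged 84.5 ± 9.89 in Luciferase libraries and 115 ± 5.65 in 6T libraries (SD, n = 6; limma adjusted p = 0.0559). GAS5, the best studied snoRNA host and a known target of nonsense-mediated decay, averaged 1467 ± 97.0 and 1588 ± 257 in the same order, with overlap (SD, n = 6; log2 difference −0.10 ± 0.10 SE, limma adjusted p = 0.554). The sgRNAs were in separate tables of libraries, and the labels give no batch, so a batch and the sgRNA cannot be told apart.

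Part of the spread of snoRNA hosts came from 1 library, 6T B1. In library 6T B1 their median lay 0.31 (log2) below their mean over all libraries, against −0.07 for all 188 RNAs, and in 6T B2 and B3 it was 0.05 and 0.03. SNHG1 (1330 in B1, 3163 in B2), SNHG7 (884, 1504 and 1324) and GAS5 (1160.3, 1968 and 1592 in 6T libraries B1 to B3) all had their lowest 6T value in B1. Not every host did: SNHG21 had its highest 6T value in B1, and the B1 value of SNHG8 lay inside its condition A range. Without 6T B1 the class median of condition B over A under the 6T sgRNA was 0.12, against −0.04 with all 6 libraries, both as means of log2 values.

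GC content went with the fold changes in both tables. Under the Luciferase sgRNA, Spearman's rho between the GC content of the longest annotated transcript and the log2 fold change of condition B over A was −0.42 over the 180 RNAs with a value, and −0.76 over 11451 genes with a mean of 50 or more. Under the 6T sgRNA it was 0.27 over the 180 RNAs and 0.47 over all these genes. For the 45 RNAs richest in GC (54.6% or more) the median of the log2 fold changes was −0.14 with the Luciferase sgRNA and 0.11 with the 6T sgRNA, and the 45 poorest (43.9% or less) had 0.14 and −0.07. For the Luciferase against 6T difference over both conditions rho was 0.38 over the 180 RNAs and 0.68 over 11365 genes. In library Luciferase A1, 32 of the 188 RNAs deviated from their mean over all libraries by 0.5 or more on the log2 scale. The count was 1 each in Luciferase A2 and B2, 4 in Luciferase A3, 3 in Luciferase B3 and 6 in Luciferase B1. It was 23 in 6T B2, 16 each in 6T B1 and 6T A2, 7 in 6T A3, 6 in 6T A1 and 1 in 6T B3. The same count was not taken over all genes, so it does not set these RNAs apart. All genes with a mean of 50 or more had a higher median level (410 normalized reads, against 133 for the 188). The log2 difference of genes with 56.7% GC or more over those with 42.1% or less was −0.10 in 6T B2 and −0.31 in Luciferase B3. These are descriptions across genes, with shared libraries, and the part of base composition in single fold changes was not tested beyond the corrected values given above.

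**Figure D4:**
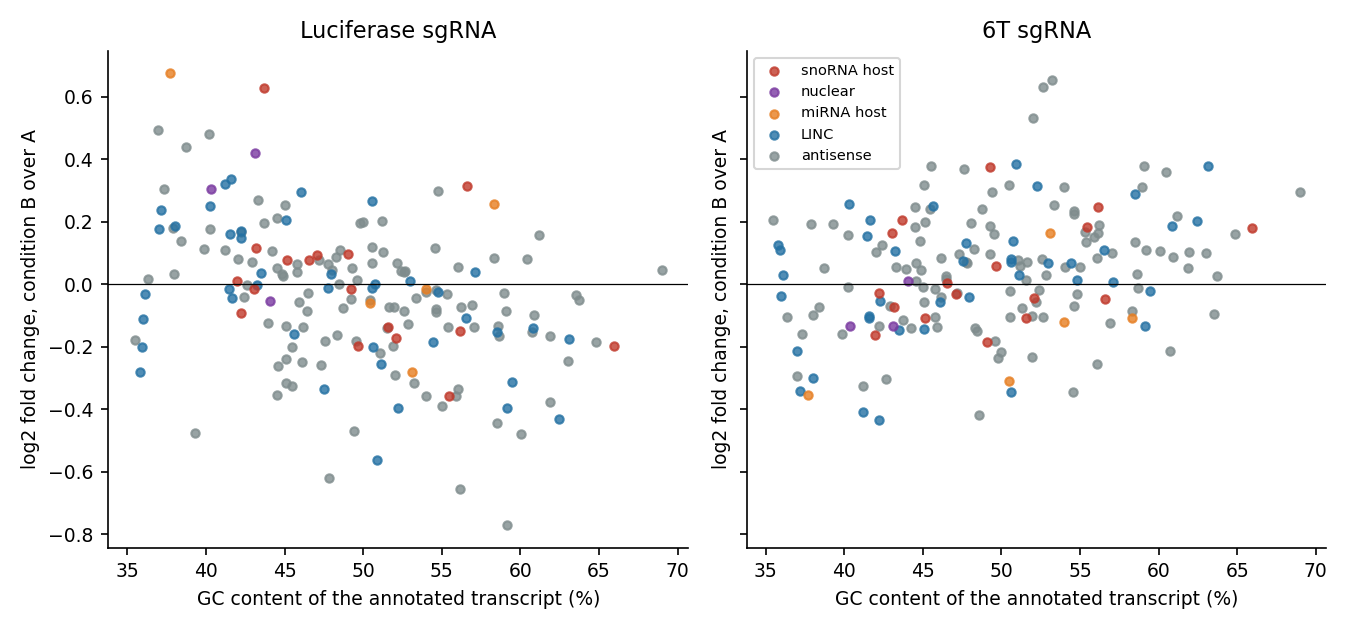
The authors' log2 fold change of condition B over A against the GC content (percent) of the longest annotated transcript, for the Luciferase sgRNA (left) and the 6T sgRNA (right). Each point is 1 of 180 RNAs, coloured by class; fold changes fall with GC content on the left (rho −0.42) and rise with it on the right (rho 0.27).

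Antisense RNAs and the genes they are named for showed weakly related fold changes. In 111 pairs the partner had a mean of 10 or more in both tables. Spearman's rho between the log2 fold changes of antisense RNA and partner was 0.33 under the Luciferase sgRNA, with the same sign in 67 of 111 pairs, and 0.09 under the 6T sgRNA, with the same sign in 65. For the 67 pairs whose exons overlap, rho was 0.24 and −0.02, and for the 39 that do not, 0.40 and 0.25, each given for the Luciferase and then the 6T sgRNA. PSMG3-AS1 had a log2 fold change of −0.77 in the Luciferase table, and PSMG3, which encodes a proteasome assembly chaperone, −0.11. HNRNPU-AS1 had 0.93 there, and HNRNPU, which encodes a nuclear RNA-binding scaffold protein, 0.11. ST20-AS1 had −0.66 and ST20 0.09. MIF-AS1, the antisense RNA with the second most reads (means of 1550.3 ± 77.4 in 6T condition B and 1388 ± 119 in 6T condition A; SD, n = 3), shares 687 exonic bases with MIF, a cytokine gene, which is listed at 0 in both tables. The shared part is 46.5% of the exonic bases of MIF-AS1, where reads of both genes cannot be told apart. Since MIF lies below a mean of 10, MIF-AS1 is not among the 84 RNAs counted above as overlapping. FGD5-AS1 averaged 1397 ± 52.1 in 6T condition B and 1467 ± 24.5 in 6T condition A (SD, n = 3), a fold of 0.952 with libraries that did not overlap.

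Genes listed for making or degrading such RNAs, paraspeckle protein genes and TOP mRNAs did not pass the authors' deposited test either. Of 16 core proteins of snoRNA particles and their assembly, 9 had a log2 fold change above 0 and 7 below under the Luciferase sgRNA (median 0.02), and 5 above and 11 below under the 6T sgRNA (median −0.02). NOP58, a protein bound to box C/D snoRNAs, had 0.51 under the Luciferase sgRNA (unadjusted p = 0.075). Of 19 nonsense-mediated decay factors, 8 were above 0 and 11 below under the Luciferase sgRNA (median −0.01), and 2 above and 17 below under the 6T sgRNA (median −0.09). Of the 20 nuclear exosome genes, 10 were above 0 under the Luciferase sgRNA (median 0.00) and 6 under the 6T sgRNA (median −0.10). The 17 paraspeckle proteins split 9 above and 8 below (median 0.03) and 6 above and 11 below (median −0.04) in the same order. Of 15 microRNA processing genes at a mean of 10 or more, 11 were above 0 under the Luciferase sgRNA (median 0.04) and 2 under the 6T sgRNA (median −0.17), with AGO3 at −0.38 (unadjusted p = 0.0587) there. Of 23 TOP mRNAs other than ribosomal protein genes, 14 were above 0 under the Luciferase sgRNA (median 0.04) and 9 under the 6T sgRNA (median −0.04). In all genes with a mean of 50 or more, 49.5% were above 0 under the Luciferase sgRNA and 40.3% under the 6T sgRNA.

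The minimum of 50 falls in a dense range of levels. Just inside it were PCBP1-AS1, RHPN1-AS1 and LINC01419, with 50.7, 50.8 and 51.2 normalized reads in the table with the smaller mean. Among those just outside were TOPORS-AS1 and LINC-PINT, with 49.0 and 48.8.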

How the data were processed

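PolyA RNA of HEK293T cells was sequenced in 12 libraries, 3 in each of 4 groups. Alignment by the authors was with STAR against hg38, counting with HTSeq and testing with DESeq, per the submitters' processing notes; versions and strand use are not given in the sources used here. In each table the signal columns hold the authors' mean read counts after division by DESeq size factors, per the file headers. The ratio and log2 columns are the authors' deposited fold change, condition B over A. The p-value columns are the authors' deposited DESeq test, unadjusted and adjusted. Rows that name no gene (5 per table) held 38.67% (6T) and 41.7% (Luciferase) of normalized reads and were left out.

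Whole reads per library were recovered from each mean, since it is a sum of multiples of 3 steps, 1 per library; a single solution was found for 99.6385% to 99.9458% of genes above 0, and for all 188 RNAs. On simulated means the true reads were found for 99.85%. For the tests, log2(normalized reads + 1) of all genes with a mean of 10 or more was modelled in limma 3.58.1 (R 4.3.3), letting the variance follow the mean, with Benjamini-Hochberg adjustment over all of them. Annotation came from GENCODE 29 (matched by symbol, with 180 of 188 found) and RefSeq, both on GRCh38. Full values are given by rule for the 3 members of each class with the highest mean, the 2 per class and table with the smallest authors' p, the 5 with the largest ratio of means, the 5 with the smallest p of the difference between sgRNAs, and those next to the minimum. The members, lists and tests were chosen with earlier results of these data known. A few genes and the values that need them are not reported here.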

Additional observations from a re-analysis of the deposited data

How the results depend on the processing

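No paired analysis was possible because the tables' columns carry no replicate numbers. The count tests named as alternatives (edgeR and DESeq2) were not run, since the deposited values are means and the reads were recovered from them. Signs of single RNAs were checked only for the 2 per class and table with the smallest authors' p, and for 4 RNAs between the sgRNAs. The latter were SNHG12, LINC01000, SNHG15 and SNHG1. None of these fold changes changed sign, and other RNAs were not checked in this way. The differences of ATP6V1B1-AS1 and MMP24-AS1 between the sgRNAs changed sign with the order of conditions turned in 1 table (0.33 and 0.02). Some class medians near 0 changed sign as well. For snoRNA hosts under the 6T sgRNA, −0.0275 in the deposited table became 0.0129 after GC correction, 0.0168 without 6T A3 and 0.124 without 6T B1. Under the Luciferase sgRNA, the microRNA host median of −0.0157 became 0.121 without RNAs that overlap a gene on the other strand, 0.0777 after GC correction, and above 0 without Luciferase A1, A2, B2 or B3 (0.00816 to 0.0721), and the snoRNA host median of −0.0150 became 0.00733 without Luciferase A1 and 0.0147 without Luciferase B1. Among all genes under the 6T sgRNA, limma called 0 at an adjusted p under 0.05 under every setting and with any library left out (0 to 0), against 8 by the authors' test. The 6T median of microRNA hosts was −0.31 with a minimum mean of 100, where 3 hosts remain, and the Luciferase median of LINC genes was −0.0772 after GC correction, against −0.03. With 1 library left out at a time, the members called between the sgRNAs over both conditions ranged from 0 to 4. The 4 of 188 came without Luciferase A2 (2.13%, beside 2.31% of all genes). Within condition A the members called ranged from 0 to 6 (6 of 188 without Luciferase A2, beside 8.33% of all genes). With the order of conditions turned in 1 table, chosen after seeing the data, 1 RNA was called within condition A. Under the 6T sgRNA, with 1 library left out, the class medians ranged from −0.0692 to 0.124 for snoRNA hosts, −0.321 to −0.0595 for microRNA hosts, and 0.00459 to 0.0675 for LINC genes. For snoRNA hosts in the Luciferase table the range was −0.0989 to 0.0147. Where such a fit leaves 2 libraries in a group, its spread is pooled with the other groups. With 3 libraries a condition, small differences of RNAs near the minimum could not be detected.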
